A study of Mus musculus with 6 samples.

Results

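Oxidative phosphorylation is carried out in the inner mitochondrial membrane by complexes that pass electrons from NADH and succinate to oxygen and by an ATP synthase that uses the resulting proton gradient. Most of their subunits are encoded in the nucleus, made in the cytosol and imported, and a smaller set of hydrophobic core subunits is encoded by the mitochondrial genome. In lung, as in other tissues, most subunits come from genes active in every cell type, while complex IV also has isoforms restricted to heart and skeletal muscle, testis or lung. The nuclear-encoded subunit genes were chosen by symbol, as names that start with Nduf followed by a, b, c, s or v and a number, with Uqcr, with Cox4 to Cox8 or with Atp5. Cox8b and Cox7a1, which serve as markers of brown fat and striated muscle, and 3 pseudogene symbols were left out of the 83 names that matched. The 78 members, of 41388 genes in the table, fell by symbol into 37 genes of complex I (NADH dehydrogenase), 8 of complex III (cytochrome bc1), 16 of complex IV (cytochrome c oxidase) and 17 of complex V (ATP synthase). They lie on 19 chromosomes. Complex II has no member under these names and is given separately, and Ndufa4, named after complex I, is now regarded as a subunit of complex IV.

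RNA was sequenced from the lungs of 3 adult WT mice (C57BL/6J) and 3 adult KO mice that carry a germline deletion of the 5' part of Zpbp2 with its promoter on a C57BL/6J background, all collected at zeitgeber time 7. The KO strain was B6.129S7-Zpbp2 tmZuk/Mmjax, every cell of these mice carried the deletion, and the WT mice came from the same colony and carried no transgene. Each library was described as total RNA of 1 mouse, and neither age in weeks nor the sex of each mouse was given in the sources used here. The comparison asks how the deletion bears on the lung transcriptome at this time of day.

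Library totals ranged from 59134950 to 71354388 counts. Zpbp2 had 20, 15 and 7 counts in WT1, WT2 and WT3, against 1, 0 and 0 in KO1, KO2 and KO3, which follows the labels. KO2 and KO3 differed by 2.97 times the variance expected from counting alone over the members, against 11.2 to 77 times for the other pairs within a group, so their counts were added and treated as 1 KO sample (n = 3 WT, n = 2 KO), since it is in doubt whether they are separate mice. WT3 and KO1 stood apart from the other libraries along the first principal component (52.3% of the variance). The 12 skeletal muscle markers summed to 3980 CPM (counts scaled to a common library size, set by the trimmed mean of M values, TMM) in WT3 and 5710 CPM in KO1 and to between 43.6 and 110 CPM elsewhere, with Acta1 and Ckm the most abundant. The 15 squamous epithelium markers, led by Krt4 and Krt13, summed to 4680 CPM in WT3, 8960 CPM in KO1 and 25.3 to 35.9 CPM elsewhere. The 10 alveolar type 2 cell markers, which define the labelled tissue and were led by Sftpc and Sftpb, summed to 22800, 23500 and 23900 CPM in WT and 34100, 32400 and 32200 CPM in KO, with 4 called higher and 0 lower. In bulk RNA, fewer cells of a type and less RNA per cell cannot be told apart.

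Of the 78 members, 76 passed the filter on low counts. Cox8c and Cox7b2, isoforms known from testis, were at or under 3 counts in every library and were not tested. Promoters of several of these genes are known targets of the transcription factor NRF1, so the windows from 250 bases before to 50 bases after each RefSeq start site (GRCm38.p6) were searched on both strands for GCATGCGC, the core of its motif, and for a longer form that starts with a further GC. A window was at hand for 64 members. The members without a window, which were not searched, include Atp5a1, Cox4i1, Cox4i2, Cox6a2, Cox6c, Cox8c, Ndufa2, Ndufa4l2, Ndufb9, Ndufs1, Uqcrb, Uqcrc2 and Uqcrq. The core was present for 9 of 64 members (14.1%), against 3.05% of the 27025 genes of the RefSeq promoter table. The longer form, which contains the core, was present for 5 members (7.81%), against 1.07% of all genes. The 6 matches whose 10 flanking bases on either side also lie before the start site are shown with the core in capitals. They are written 5' to 3' on the strand of the gene and were picked because they hold the core.
Atp5g2: ctccggccgcGCATGCGCagagccttcc
Atp5k: tcactgcggcGCATGCGCctttctggct
Atp5l: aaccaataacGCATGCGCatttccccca
Cox6a1: ggaacggggcGCATGCGCgctctcgctc
Ndufa11: tgcactgcgcGCATGCGCgcacgccttg
Ndufa6: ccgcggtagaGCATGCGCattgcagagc

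The Atp5g2 window is at chr15:102671070-102671097 (minus strand), the Atp5k window at chr5:108434430-108434457 (minus strand) and the Atp5l window at chr9:44920965-44920992 (minus strand). The Cox6a1 window is at chr5:115349101-115349128 (minus strand), the Ndufa11 window at chr17:56717694-56717721 (plus strand) and the Ndufa6 window at chr15:82354357-82354384 (minus strand). Ndufa8 held the core directly before the start site, Uqcr11 across it and Uqcrc1 after it. A match says only that these letters are present. Ndufa2 and Ndufa7 are not among the genes with a match, and Ndufa2 has no window here.

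In KO lungs, 2 accessory subunits of complex I were higher and no member was called lower by the main test, the edgeR quasi-likelihood test with KO2 and KO3 as 1 sample, to which "called" refers where no other test is named. Ndufa2 and Ndufa7 rose by 0.42 and 0.31 on the log2 scale. They were 2 of the 76 members tested, beside 1.38% of all 18660 genes called higher, and 0 members were called lower, beside 0.906% of all genes. With the limit of 0.05 set on the unadjusted p, 15 members were higher (13.9% of all genes) and 4 lower (13.4% of all genes) by the same edgeR quasi-likelihood test. DESeq2 called 12 higher (10.6% of all genes) and 4 lower (10.4% of all genes). The 12 were Ndufa2, Ndufa3, Ndufa7, Ndufb3, Ndufb7, Ndufs6, Uqcrh, Cox6a1, Cox6b2, Cox7a2l, Cox8a and Atp5e, and the 4 were Ndufs1, Ndufa10, Uqcrc2 and Atp5b. The members' log2 fold changes ran from -0.66 to 0.49 with 49 above and 27 below 0, and their median was 0.07, beside 0.02 over all genes tested. Every KO library lay above every WT library for 17 members (20.1% of all genes did so) and below for 5 (20.7% of all genes), so the members' share was near that of all genes upwards and under it downwards, a difference that was not tested. For the other 54 the groups overlapped. Summed over the members, the level was 7190 ± 406 CPM in WT (SD, n = 3) and 6960 ± 679 CPM in KO (SD, n = 2), a difference smaller than the spread.

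**Figure D1:**
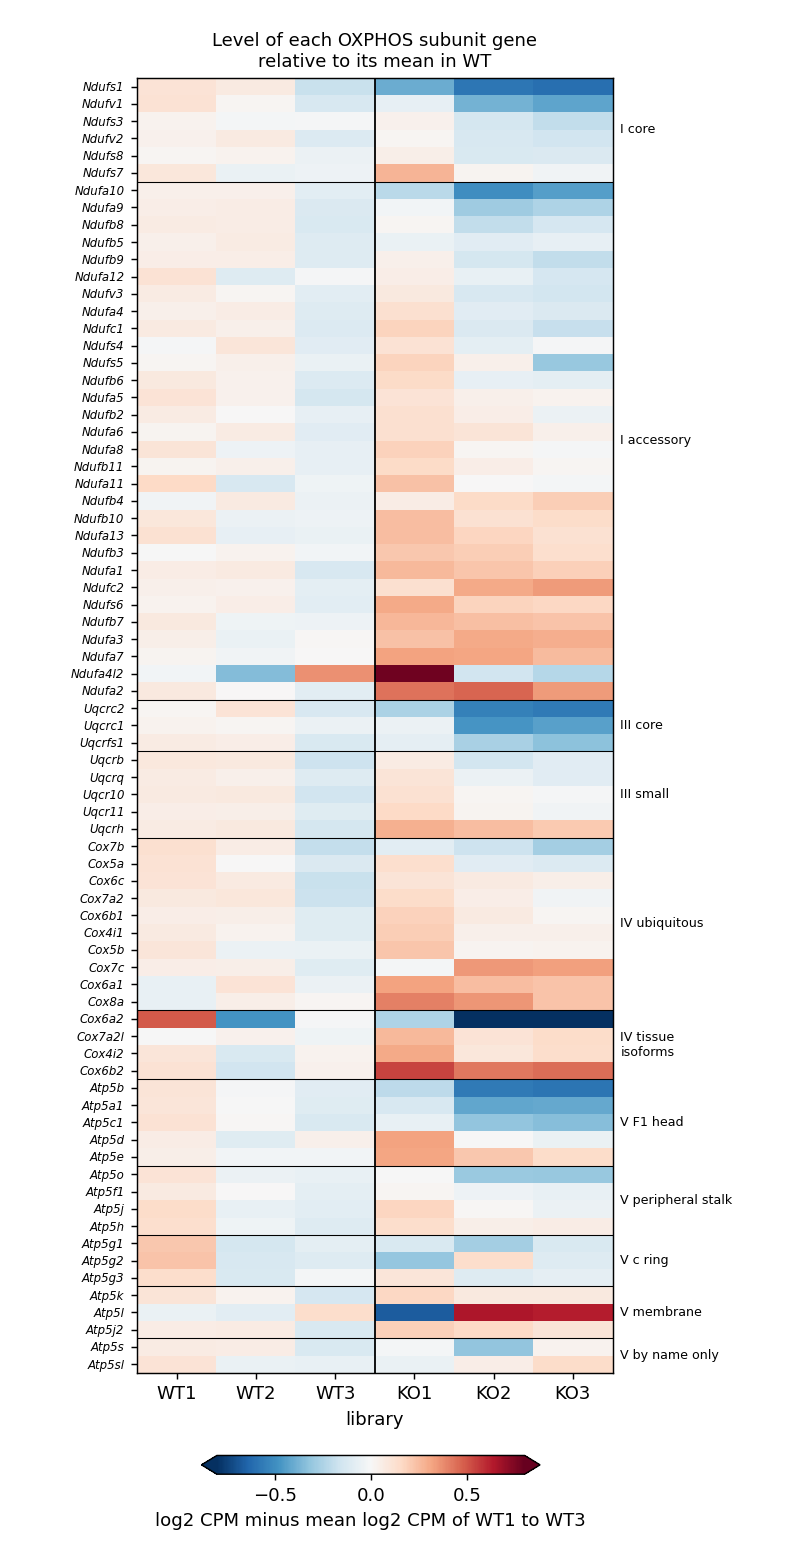
Level of 75 of the 76 tested members in each library, as log2 CPM minus the mean log2 CPM of WT1 to WT3. Rows are grouped by place in the complex and sorted by log2 fold change, blue is below and red above the WT mean, and values beyond 0.8 in either direction take the end colours. Core subunits of complexes I and III and the alpha, beta and gamma subunits of ATP synthase are mostly blue in KO2 and KO3, the small accessory subunits pale or red, and KO1 is redder than KO2 and KO3 in most rows.

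Ndufa2 and Ndufa7 both belong to the arm of complex I that projects into the matrix and oxidises NADH. Ndufa2 (ENSMUSG00000014294, 18:36742332-36744557, minus strand, GRCm38) measured 61.3, 58.3 and 54.8 CPM in WT and 78.6, 80.2 and 73.4 CPM in KO. The groups did not overlap, and the log2 fold change was 0.42 ± 0.06 (SE, edgeR adjusted p = 0.048). Ndufa7 (ENSMUSG00000041881, 17:33824572-33838317, plus strand) measured 72.9, 70.5 and 72.0 CPM in WT and 89.7, 89.3 and 85.7 CPM in KO, again without overlap (log2 fold change 0.31 ± 0.04, edgeR adjusted p = 0.0474). Exons of Ndufa2 overlap those of Tmco6, and whether counting used the strand was not given in the sources used here. Both calls ended when any single library other than KO3 was left out, with library size alone, with the exact test and with the length and GC offset, and the adjusted p ranged up to 0.286 for Ndufa2 and 0.596 for Ndufa7 over the alternatives. Without WT1, WT2 or WT3 no gene in the table was called by edgeR, although 3346 to 4193 had an unadjusted p within 0.05. With an offset for transcript length and GC content the log2 fold changes were 0.24 (edgeR adjusted p = 0.146) and 0.09 (0.272), and no member was called.

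**Figure D2:**
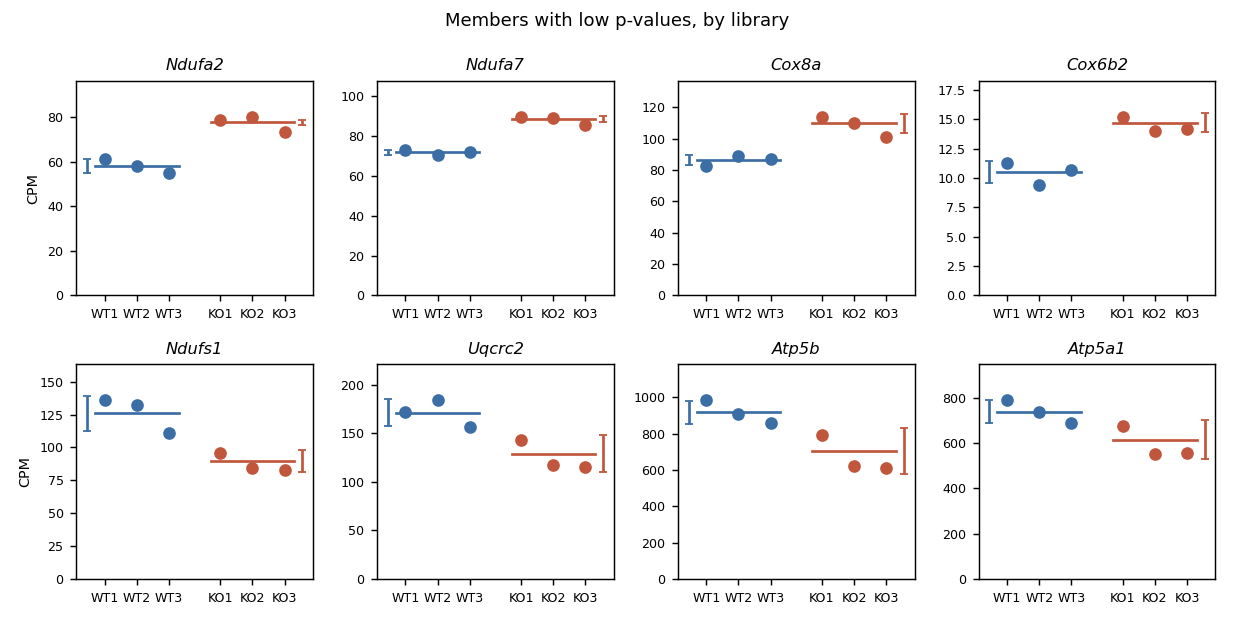
CPM of 8 members in each library (points), with the group means (lines) and SD (bars at the sides, n = 3 for WT and n = 2 for KO, KO2 and KO3 averaged). Ndufa2, Ndufa7, Cox8a and Cox6b2 lay higher in every KO library than in any WT library, and Ndufs1, Uqcrc2, Atp5b and Atp5a1 lay lower; by the main edgeR test only Ndufa2 and Ndufa7 of these passed, while DESeq2 called all but Atp5a1.

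Accessory subunits of complex I surround the catalytic core and are needed for its assembly and stability. The 30 genes grouped here under that name also include Ndufa4, now regarded as part of complex IV, and its paralog Ndufa4l2. Of the 30, 23 had a positive log2 fold change, Ndufa2 and Ndufa7 included, with a median of 0.10. The smallest p after Ndufa2 and Ndufa7 belonged to Ndufa3, at 67.5, 62.9 and 65.8 CPM in WT and 77.0, 80.8 and 79.9 CPM in KO (log2 fold change 0.27 ± 0.06, edgeR adjusted p = 0.0659). Ndufa10, an accessory subunit of the membrane arm, stood at the other end. Its levels were 105, 105 and 96.3 CPM in WT and 88.0, 72.4 and 75.1 CPM in KO, lower in every KO library (log2 fold change -0.34 ± 0.09, edgeR adjusted p = 0.0998).

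The 7 nuclear-encoded core subunits of complex I hold the flavin and iron-sulfur clusters that carry electrons from NADH to ubiquinone. Their summed level was 719, 692 and 631 CPM in WT and 653, 571 and 556 CPM in KO, so that KO1 lay within the WT range and KO2 and KO3 below it. The log2 fold change was below 0 for 6 of the 7, with a median of -0.06. None was called by the main edgeR test, and DESeq2 and the fit of 6 separate libraries called Ndufs1 lower. Ndufs1 (1:63143596-63176833, minus strand), the largest iron-sulfur subunit, had the lowest log2 fold change of complex I. It measured 136, 132 and 111 CPM in WT and 95.5, 84.3 and 82.8 CPM in KO, below every WT library, with a log2 fold change of -0.49 ± 0.11 (edgeR adjusted p = 0.0748). Exons of Ndufs1 overlap those of Eef1b2 and Ino80dos. Ndufv1, which binds NADH and the flavin, was at 137, 128 and 116 CPM in WT and 121, 97.6 and 94.5 CPM in KO, where KO1 overlapped WT (log2 fold change -0.22 ± 0.12, edgeR adjusted p = 0.31).

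Complex III passes electrons from ubiquinol to cytochrome c. Its core proteins Uqcrc1 and Uqcrc2 and the Rieske iron-sulfur protein Uqcrfs1 summed to 444, 452 and 406 CPM in WT and 396, 317 and 314 CPM in KO, lower in every KO library. Uqcrc2 (7:120635176-120659524, plus strand) was at 172, 184 and 156 CPM in WT and 143, 117 and 115 CPM in KO (log2 fold change -0.40 ± 0.12, edgeR adjusted p = 0.11). Uqcrc1 was at 174, 172 and 165 CPM in WT and 165, 123 and 126 CPM in KO, with KO1 at the edge of WT (log2 fold change -0.23 ± 0.12, edgeR adjusted p = 0.302). The 5 small subunits had a median log2 fold change of 0.06. Uqcrh, the acidic hinge protein that helps cytochrome c1 meet cytochrome c, was at 133, 134 and 115 CPM in WT and 155, 151 and 147 CPM in KO, higher in every KO library (log2 fold change 0.26 ± 0.08, edgeR adjusted p = 0.133). Uqcr10, a small subunit beside cytochrome c1, was at 87.2, 87.4 and 74.6 CPM in WT and 90.1, 83.8 and 82.4 CPM in KO, with overlap. No member of complex III was called by the main edgeR test, while DESeq2 called Uqcrc2 lower and Uqcrh higher.

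Complex IV reduces oxygen to water at a catalytic core encoded by mitochondria, and its nuclear subunits surround and tune that core. Of the 14 tested, 12 had a positive log2 fold change and the median was 0.13, the highest of the complexes. The median was 0.04 without KO1, -0.01 without WT3 and KO1 and -0.04 with the length and GC offset. Cox8a (19:7215153-7217616, minus strand), among the smallest subunits, was at 82.5, 88.9 and 87.1 CPM in WT and 114, 110 and 101 CPM in KO, without overlap. Its log2 fold change was 0.36 ± 0.06 with an edgeR adjusted p of 0.0506, just outside the threshold that Ndufa2 and Ndufa7 met. Under the length and GC offset Cox8a was at 0.10 and Cox6a1 at 0.02 (edgeR adjusted p = 0.44 and 0.932). Cox6a1, the general form of subunit VIa, was at 118, 133 and 119 CPM in WT and 154, 146 and 144 CPM in KO (log2 fold change 0.28 ± 0.07, edgeR adjusted p = 0.0857). Cox7b was lower on average, at 91.9, 87.7 and 73.5 CPM in WT and 79.3, 74.9 and 69.7 CPM in KO, with overlap (edgeR adjusted p = 0.442).

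Cox4i1 and Cox4i2, and Cox6b1 and Cox6b2, differed in level by large factors within each library. Cox6a1 and Cox6a2 lay closer in WT1, at 207 and 140 CPM per kb, and further apart in KO2, at 257 and 47.4 CPM per kb. On the scale of CPM per kb of transcript, Cox4i1, the general form of subunit IV, was at 346 to 425 and Cox4i2, the form known from lung, at 72.0 to 96.5 CPM per kb, without overlap between the genes. Cox4i2 measured 60.9, 52.4 and 58.0 CPM in WT and 70.2, 60.8 and 62.7 CPM in KO, with KO2 below WT1 (log2 fold change 0.21 ± 0.09, edgeR adjusted p = 0.213). Cox4i1 measured 290, 281 and 258 CPM in WT and 317, 284 and 284 CPM in KO (0.12 ± 0.08, edgeR adjusted p = 0.386). Cox6b2, known from testis, was detected in all libraries at 17.0 to 27.5 CPM per kb, beside 221 to 267 CPM per kb for the general Cox6b1. It measured 11.3, 9.40 and 10.7 CPM in WT and 15.2, 14.0 and 14.2 CPM in KO, and its log2 fold change of 0.49 ± 0.11 was the highest of all members (edgeR adjusted p = 0.0737). The other testis forms, Cox8c with 0, 0 and 0 reads counted in WT against 0, 0 and 3 for the KO lungs, and Cox7b2, with 0, 2 and 3 against 2, 3 and 1, were at or under the floor of 3 counts per library.

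Cox6a2, the form of subunit VIa found in heart and skeletal muscle, varied between libraries, from 32.1 CPM in KO3 to 95 CPM in WT1. It measured 95, 48.7 and 67.2 CPM in WT and 57.1, 32.3 and 32.1 CPM in KO, and its log2 fold change of -0.66 ± 0.37 was the lowest of all members and was not called (edgeR adjusted p = 0.323). KO1 lay between WT2 and WT3. The log2 fold change was -0.37 without WT1, where that of Ndufs1 was -0.43 and thus lower, and -1.13 without KO1. The 20 cardiomyocyte markers, of which Myh6 and Actc1 were the most abundant, summed to 8600, 3830 and 3730 CPM in WT and 2570, 1600 and 1620 CPM in KO, all below the WT range. None of the 20 was at 0 in all libraries, 19 had a negative log2 fold change, and their median was -1.31. The main edgeR test called none of them and DESeq2 called 10 lower. Skeletal muscle markers were high in WT3 and KO1, as given above, and Cox6a2 exons overlap those of Itgad. The part of these tissues in the Cox6a2 values was not tested. Cox7a1 and Cox8b, the excluded isoforms, were at 27.4 to 43.1 and 26.9 to 40.9 CPM in WT and at 12.1 to 19.6 and 8.71 to 20.4 CPM in KO, below every WT library, not called by the main test (edgeR adjusted p = 0.0873 and 0.125) and called lower by DESeq2.

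Ndufa4l2, a paralog of Ndufa4 known to be induced by low oxygen, was at 36.1, 28.8 and 47.1 CPM in WT and 62.7, 32.9 and 31.2 CPM in KO. WT3 and KO1 held the highest values of their groups, and the log2 fold change of 0.35 ± 0.34 was not called (edgeR adjusted p = 0.564). It was -0.02 without WT3 and KO1. Ndufa4 itself measured 129, 131 and 117 CPM in WT and 137, 118 and 116 CPM in KO (log2 fold change 0.02 ± 0.09, edgeR adjusted p = 0.917).

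**Figure D3:**
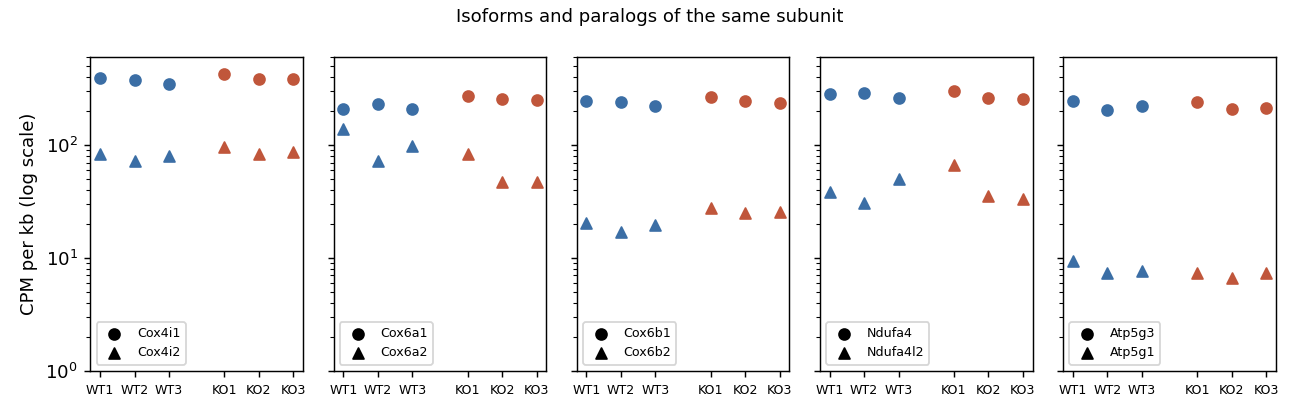
CPM per kb of transcript, on a log scale, for pairs of isoforms or paralogs in each library (circles the general or most abundant form, triangles the other, blue WT and red KO). The circles lie above the triangles in every library; Cox6a2 and Ndufa4l2 spread the most within their groups.

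ATP synthase consists of the catalytic F1 head, a ring of c subunits in the membrane that turns with the central stalk, and a peripheral stalk that holds the head in place. The 5 subunits of the head summed to 2200, 2040 and 1940 CPM in WT and 1930, 1570 and 1540 CPM in KO. KO1 lay just below WT3, and KO2 and KO3 well below. Most of this sum came from Atp5b and Atp5a1. The median log2 fold change of the 5 was -0.19, with 3 below 0 and 2, Atp5d (0.16) and Atp5e, above. The catalytic beta subunit Atp5b (10:128083273-128090391, plus strand) was the most abundant member per length, at 416 CPM per kb on average. It measured 985, 910 and 861 CPM in WT and 794, 621 and 613 CPM in KO, below every WT library (log2 fold change -0.38 ± 0.13, edgeR adjusted p = 0.143). The alpha subunit Atp5a1 was at 790, 737 and 689 CPM in WT and 675, 554 and 555 CPM in KO, also without overlap (-0.26 ± 0.11, edgeR adjusted p = 0.206). The epsilon subunit Atp5e, a short protein of the central stalk, lay the other way, at 110, 105 and 105 CPM in WT and 133, 124 and 118 CPM in KO (0.26 ± 0.06, edgeR adjusted p = 0.0772). Subunits that stand in fixed numbers in the same head were thus on opposite sides of 0. None was called by the main edgeR test, while DESeq2 and the fit of 6 separate libraries called Atp5b lower and Atp5e higher.

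The c subunit is encoded by Atp5g1, Atp5g2 and Atp5g3, whose precursors carry different import sequences and yield the same mature protein. Atp5g3 supplied nearly all of the counted transcript, at 223 CPM per kb on average, beside 7.65 for Atp5g1 and 2.61 for Atp5g2. Atp5g3 measured 176, 147 and 158 CPM in WT and 171, 149 and 152 CPM in KO (log2 fold change 0.01 ± 0.10, edgeR adjusted p = 0.975). Atp5g1 was at 6.48, 5.07 and 5.28 CPM in WT and 5.13, 4.62 and 5.12 CPM in KO, and Atp5g2 at 1.38, 1.08 and 1.10 CPM in WT and 0.953, 1.30 and 1.10 CPM in KO, all with overlap. Atp5g1 is the member nearest to the deleted gene, 2.48 Mb from Zpbp2 on chromosome 11, and it was not called (edgeR adjusted p = 0.545). The 3 other members on that chromosome, Atp5h, Uqcrq and Uqcr10, lie 16.9, 45.1 and 93.8 Mb away and had log2 fold changes of 0.09, 0.02 and 0.06. The 4 peripheral stalk genes had a median log2 fold change of 0.03 and the 3 membrane genes 0.15. Atp5s and Atp5sl, which share the name and are not structural subunits of the enzyme, were at -0.08 and 0.03.

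Levels within a complex differed more between genes than between genotypes. Over the 76 tested members the mean level ran from 0.938 CPM per kb (Atp5l, the g subunit in the membrane) to 416 CPM per kb (Atp5b), although the complexes hold most subunits in single copies. Processed pseudogenes that are near copies of the transcript (at least 95% identity over at least 50% of its length, among 13910 pseudogene transcripts) were found for 12 tested members. Atp5l had 8 of them, Atp5h and Uqcrb 3 each and Atp5g2 had 2. The median level was 38.5 CPM per kb for these 12 members and 88.8 for the 64 without such a copy. A level under 12 CPM per kb, a limit chosen after the values were seen, was found for 5 of the 12 (Atp5l, Atp5g2, Atp5g1, Cox7c and Ndufs5) and for 2 of the 64 (Atp5s and Ndufb4). Reads that match a gene and its copy equally well can be lost or split in counting, so the levels of these 12 genes are uncertain; the part of the copies in the low values was not tested. All 6 libraries were counted alike, and the 12 genes' median log2 fold change was 0.06, beside 0.07 for the other 64.

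The members were short genes, with a median transcript length of 729.5 bases beside 2512 bases over all genes tested. Of the 76, 62 fell in the shortest of 4 equal classes (38 to 1463 bases), in which the median log2 fold change of all genes was 0.17 and 169 genes were called higher and 10 lower. In the longest class, which holds no member, the median was -0.13 with 4 called higher and 105 lower. Spearman's rho between log2 fold change and length was -0.347 across 18516 genes and -0.521 across the 76 members, as descriptions over genes that share the same libraries. The longest members are mostly the core subunits named above, whose median lengths were 1623 bases in complex I, 1653 bases in the core of complex III and 1166 bases in the F1 head, against 693.5 bases for the accessory subunits of complex I. With the offset for length and GC content, rho was 0.01 across all genes and still -0.402 across the members. The members' median log2 fold change was then -0.11 beside 0.01 over all genes, with -0.08 for the accessory and -0.27 for the core subunits of complex I, -0.41 for the complex III core and -0.28 for the F1 head. Under this offset no member was called by edgeR, and over all genes it called 4, with 3796 whose unadjusted p was within 0.05.

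**Figure D4:**
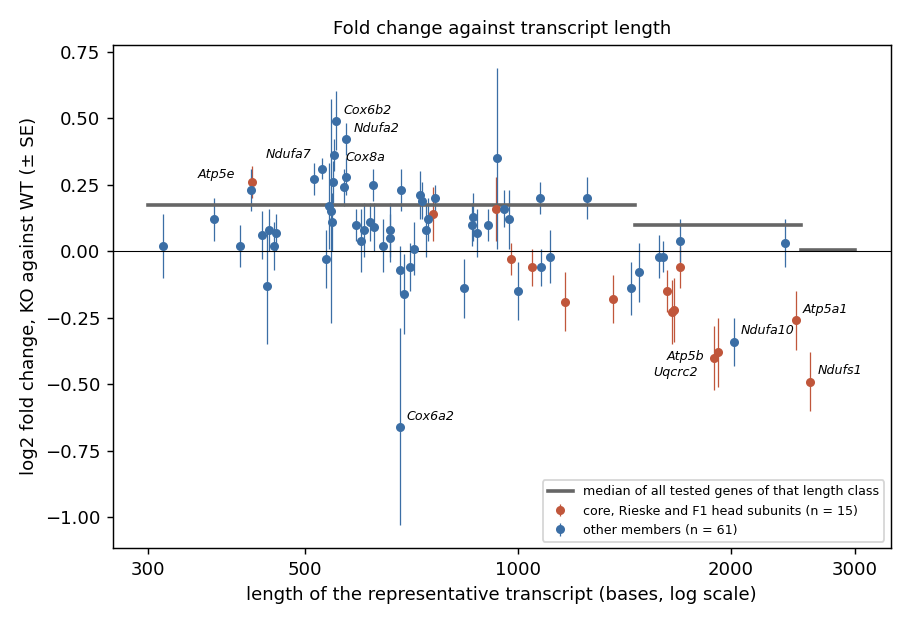
Log2 fold change of KO against WT (points, with SE) for the 76 tested members against the length of the representative transcript in bases (log scale). Grey lines give the median of all tested genes in each length class. Core, Rieske and F1 head subunits (red, n = 15) span short and long transcripts, with Atp5e among the shortest, and those above 1463 bases lie below 0, and the members of up to 1463 bases spread around and mostly below the 0.17 median of their class.

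The number of members that passed differed with the libraries used, as it did with the test and the scaling. With the 6 libraries as separate samples, which counts KO2 and KO3 as independent, 10 members were called higher (9.81% of all genes) and 4 lower (9.07% of all genes). The 10 were Ndufa2, Ndufa7, Ndufa3, Ndufb7, Ndufb3, Ndufc2, Cox8a, Cox6a1, Cox6b2 and Atp5e, and the 4 were Ndufs1, Ndufa10, Uqcrc2 and Atp5b. The members' share called higher was thus somewhat above, and the share called lower below, that of all genes, and this was not tested. Without WT3 and KO1, the libraries with skeletal muscle and squamous transcripts, WT1 and WT2 were compared with KO2 and KO3 summed as 1 sample. Then 1 member was called higher (6.01% of all genes), Ndufa2 at a log2 fold change of 0.36 (edgeR adjusted p = 0.0291), and 10 lower (5.88% of all genes). The 10 were Ndufs1, Ndufv1, Ndufa9 and Ndufa10 of complex I, Uqcrc1, Uqcrc2 and Uqcrfs1 of complex III and Atp5a1, Atp5b and Atp5c1 of ATP synthase, at log2 fold changes from -0.68 (Ndufs1) to -0.33 (Ndufa9). Both core proteins of complex III, its Rieske protein and the alpha, beta and gamma subunits of the head were among them, and no gene of complex IV was. The KO side of this fit was 1 sample, so its p-values rest on the difference between WT1 and WT2 alone. They cannot stand for a comparison of mice.

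Other genes of the same pathway fell outside the naming rule. Of the 4 subunits of complex II, which oxidises succinate, none was called by the main edgeR test, and 2, Sdha and Sdhb, were called lower by DESeq2 and with 6 separate libraries. Sdha, its flavoprotein, was at 351, 356 and 302 CPM in WT and 275, 242 and 242 CPM in KO (log2 fold change -0.38 ± 0.10, edgeR adjusted p = 0.0993), and Sdhb, its iron-sulfur protein, at 125, 127 and 105 CPM in WT and 99.4, 89.7 and 85.0 CPM in KO (-0.35 ± 0.11, edgeR adjusted p = 0.123). Both were lower in every KO library, while the membrane anchors Sdhc (0.05) and Sdhd (-0.12) overlapped. Of 8 further subunits and associated genes 5 had a positive log2 fold change, the median was 0.24 and the main edgeR test called 1 (DESeq2 called 4), Atpif1, the inhibitor of ATP hydrolysis by the F1 head. It was at 64.6, 63.1 and 67.0 CPM in WT and 87.2, 93.8 and 87.2 CPM in KO, and it rose by 0.46 ± 0.05 on the log2 scale (edgeR adjusted p = 0.0446). The call of Atpif1 was lost once length and GC content were offset, where its rise was 0.27 (edgeR adjusted p = 0.0998). Its largest adjusted p among the alternatives was 0.189. Usmg5, a small membrane subunit of ATP synthase, was at 4.27, 3.59 and 3.95 CPM in WT and 5.77, 7.96 and 6.18 CPM in KO, without overlap, and its log2 fold change of 0.71 ± 0.15 lay above that of any member (edgeR adjusted p = 0.07). Higd1a (0.32), Higd2a (0.29) and 2010107E04Rik (0.20) were also higher in every KO library and not called by the main edgeR test, while DESeq2 called Higd1a, Higd2a and Usmg5. Cyc1, the cytochrome c1 of complex III, was at 117, 118 and 105 CPM in WT and 109, 86.5 and 87.7 CPM in KO. Its log2 fold change was -0.21 ± 0.11 (edgeR adjusted p = 0.295), and -0.38 without KO1. The matrix acyl carrier protein Ndufab1, also part of complex I, overlapped (-0.08), and so did Cycs, cytochrome c (-0.30). Of 47 assembly factors tested, 2 were called higher and 0 lower, with a median of 0.04. With DESeq2, as with 6 separate libraries, 7 were higher and 3 lower. Over all genes, the shares called were 1.38% higher and 0.906% lower in the main test and 9.81% and 9.07% with 6 separate libraries. The 2 were Pet100 (0.51 ± 0.06, edgeR adjusted p = 0.0446) and Uqcc2 (0.37 ± 0.06, edgeR adjusted p = 0.0496). They help assemble complex IV and complex III. Neither was called with the length and GC offset, under which no gene in the table was called higher.

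Of the 13 mitochondrially encoded subunits, 7 could be tested and none was called by the main edgeR test (DESeq2 called 1, lower), with a median log2 fold change of -0.15. They are the partners of the nuclear core subunits, and their summed level was 17300, 18400 and 14000 CPM in WT and 13800, 14800 and 15600 CPM in KO, with overlap, led by mt-Cytb and mt-Co1. mt-Atp6, mt-Atp8, mt-Co2, mt-Co3 and mt-Nd4l were listed at 0 in all 6 libraries and mt-Nd3 at 1 count in all, so complex IV and complex V could not be compared with most of their mitochondrial partners. Of 77 mitochondrial ribosomal proteins, which make these subunits, 3 were called higher (Mrpl14, Mrpl52 and Mrpl54) and 0 lower, with a median of 0.18. Their median was 0.03 with the length and GC offset, under which none of them was called higher. With 6 separate libraries 27 were higher and 1 lower, and with DESeq2 30 and 1. The 14 enzymes of the tricarboxylic acid cycle, which supply the NADH and succinate, had a median of -0.35 and 12 of them were below 0. None was called by the main edgeR test, and 9 were lower and 0 higher with DESeq2 and with 6 separate libraries. Their summed level was 2500, 2500 and 2190 CPM in WT and 2030, 1740 and 1730 CPM in KO, below every WT library, with Ogdh the most abundant.

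Among 13 regulators of mitochondrial biogenesis none was called by the main edgeR test, and 3, Ppargc1b, Ppargc1a and Gabpa, were called lower by DESeq2 and with 6 separate libraries. The coactivator Ppargc1b was at 4.78, 4.44 and 3.73 CPM in WT and 2.19, 1.79 and 1.88 CPM in KO, lower in every KO library (log2 fold change -1.10 ± 0.18, edgeR adjusted p = 0.0506). Ppargc1a, the related coactivator of brown fat and muscle, was at 17.7, 14.7 and 12.5 CPM in WT and 8.75, 10.5 and 9.29 CPM in KO (-0.68 ± 0.17, edgeR adjusted p = 0.0897). The transcription factors that bind subunit gene promoters were closer to 0, with log2 fold changes of 0.07 for Nrf1, -0.18 for Gabpa and 0.13 for Esrra, and Tfam, which binds mitochondrial DNA, was at 0.06.

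Several marker lists differed between the groups in the same libraries as the core subunits. Besides the cardiomyocyte markers, the 10 brown adipocyte markers, led by Ucp1 and Cox7a1, summed to 184, 290 and 92.9 CPM in WT and 57.9, 41.6 and 40.2 CPM in KO, with all 10 below 0 and a median log2 fold change of -1.49, none called by the main edgeR test and 8 lower by DESeq2. Ucp1, the uncoupling protein that defines these cells, was at 49.4, 132 and 6.27 CPM in WT and at 0.0953, 0.0967 and 0.137 CPM in KO (edgeR adjusted p = 0.0625). The 15 white adipocyte markers, led by Lpl and Car3, summed to 1860, 2400 and 1820 CPM in WT and 672, 757 and 757 CPM in KO, with 5 called lower, 0 higher and a median of -1.84. No marker of these lists was at 0 in all libraries. Erythroid markers, led by Hbb-bs and Hba-a1, summed to 2670, 2400 and 5520 CPM in WT and 3970, 19000 and 19700 CPM in KO. KO2 and KO3, which held the lowest sums of the core subunits, thus also held the lowest cardiomyocyte and brown adipocyte sums and the highest erythroid sums. In the other direction, the alveolar type 2 markers given above had a positive log2 fold change for 10 of 10, with a median of 0.36, and the 15 immediate early genes, led by Jun and Cyr61, for 15 of 15, with a median of 1.10, none called by the main edgeR test and 9 higher by DESeq2. The 5 club cell markers, led by Scgb1a1 and Cyp2f2, summed to 30900, 33200 and 28300 CPM in WT and 38000, 50200 and 50000 CPM in KO, with a median of 0.36, none called by the main edgeR test and 3 higher by DESeq2 and with 6 separate libraries. Of 83 cytosolic ribosomal proteins, encoded by short transcripts (median 756 bases) like the members, 82 were above 0, with a median of 0.39, 19 called higher and 0 lower. The immediate early genes summed to 1780, 1210 and 1590 CPM in WT and 2470, 4630 and 4630 CPM in KO. Skeletal muscle markers, high in WT3 and KO1, were above 0 for 11 of 12. The part of these cells and genes in the members' values was not tested.

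**Figure D5:**
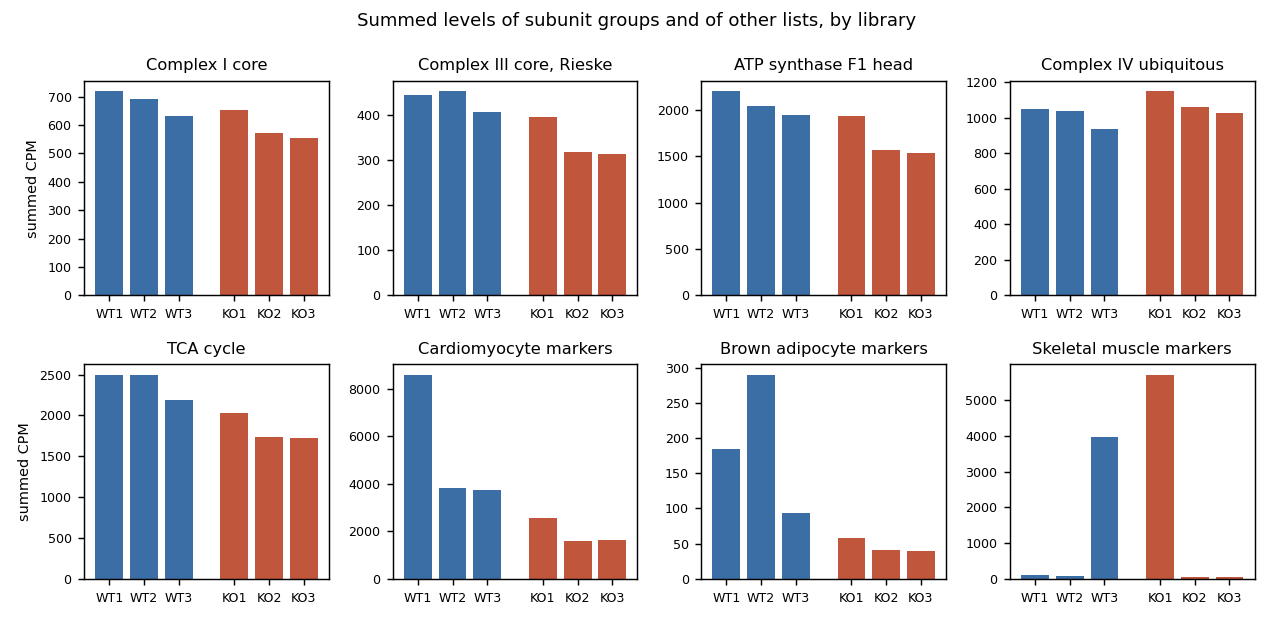
Summed CPM of 4 groups of members (upper row) and of the tricarboxylic acid cycle enzymes and the cardiomyocyte, brown adipocyte and skeletal muscle markers (lower row) in each library, bars from 0. Complex III core, F1 head, tricarboxylic acid cycle, cardiomyocyte and brown adipocyte sums are lower in every KO library than in any WT library; the ubiquitous complex IV subunits overlap, and skeletal muscle markers are high in WT3 and KO1.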

How the data were processed

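Counts per gene were deposited by the authors for 3 WT and 3 KO lungs, raw and not normalised. The submitters' processing notes name Trimmomatic 0.36, STAR 2.5.3a, Picard 2.9.0 and HTSeq 0.6.0 with the mouse build mm10. The annotation release, the read length and the use of strand were not given in the sources used here, so counts of the 29 members whose exons overlap another gene are uncertain. Libraries were described as 1 mouse each, which is in doubt for KO2 and KO3, so p-values measure the spread between libraries.

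The counts were tested with edgeR 4.0.16 (quasi-likelihood, R 4.3.3, TMM scaling, filterByExpr) with KO2 and KO3 summed, and p-values were adjusted by the Benjamini-Hochberg method over all 18660 genes tested and called at 0.05 or less. CPM used TMM-scaled sizes of the 6 libraries, and SDs of KO use KO1 and the mean of KO2 and KO3. The SDs and SEs printed include the spread between libraries. Lengths are of 1 representative transcript per gene of GENCODE M21 (GRCm38), to which 40340 identifiers (97.5%) matched. Pseudogene copies were sought among its transcripts. Promoters and their coordinates are from RefSeq (GRCm38.p6).

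The members, the gene lists and the role groups were chosen with earlier results of these data known. Genes were named by rule: those called, the highest and lowest log2 fold change and the 2 highest levels per length in each complex, tissue isoforms with their partners, the c subunit genes, listed pathway genes and Zpbp2. Other genes named were chosen after their values were seen. The script was tested on simulated data. The alternatives were separate libraries, scaling, filters, DESeq2 1.42.0, the exact test, a replicate block, a length and GC offset, and leaving out libraries. A comparison of isoform proteins was not made. Values of 2 genes are not reported here.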

Additional observations from a re-analysis of the deposited data

How the results depend on the processing

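Over 16 alternatives, 480 of 586 values of 37 named genes kept their direction and their side of the threshold, 18 lost and 51 gained a call and 37 changed sign. The count of members called was 2 in the main analysis. It was 14 with 6 separate libraries, 16 with DESeq2, 11 without WT3 and KO1, 1 with no filter and 0 with library size alone, with the exact test and with the length and GC offset. Leaving out 1 library at a time gave 0 to 3. Over all genes 426 were called, against 3402 with 6 separate libraries, 3919 with DESeq2, 2256 without WT3 and KO1, 909 with at least 10 counts in every sample, 209 with the exact test, 4 with the offset and 0 to 418 with 1 library left out. The lowest count fell to 0 without WT1, without WT2 or without WT3, and it was 17 without KO1. The members' median of 0.07 was -0.11 with the offset, -0.05 without WT3 and KO1 and -0.01 to 0.11 with 1 library left out. By complex it was -0.10 (I), -0.19 (III), -0.04 (IV) and -0.10 (V) with the offset. Without WT3 and KO1 it was -0.04 (I), -0.16 (III), -0.01 (IV) and -0.07 (V). With 1 library left out it was -0.05 to 0.11 (I), -0.10 to 0.04 (III), 0.04 to 0.17 (IV) and -0.03 to 0.08 (V). The cause of these shifts was not tested.

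No gene was called on either side of a sign change, and the highest main values among these genes were 0.35 for Ndufa4l2 and 0.21 for Cox4i2. With 6 separate libraries Ndufa4 was at -0.02 and Atp5g3 at -0.03. With library size alone Ndufa4 was at -0.04, Atp5g3 at -0.05 and Sdhc at 0.00. With the offset Ndufa4 was at -0.08, Uqcr10 at -0.14, Cox4i1 at -0.12, Cox6b1 at -0.05, Cox4i2 at -0.03, Atp5g3 at -0.15, Nrf1 at -0.04 and Esrra at -0.08. Without WT3 and KO1 Ndufa4 was at -0.15, Uqcr10 at -0.07, Cox4i1 at -0.01, Cox6b1 at -0.01, Ndufa4l2 at -0.02, Atp5g3 at -0.10, Sdhc at -0.09, Esrra at -0.02 and Tfam at -0.02. With 1 library left out the ranges were -0.10 to 0.04 for Ndufa4, -0.09 to 0.08 for Atp5g3, -0.01 to 0.10 for Uqcr10, -0.22 to 0.55 for Ndufa4l2, -0.21 to 0.02 for Atp5g2, -0.06 to 0.09 for Sdhc, -0.01 to 0.10 for Tfam and -0.18 to 0.00 for Ndufab1.

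The correlations of same-numbered deviations were -0.48, 0.564 and -0.653. Deviations were taken from the group means, and WT3 and KO1 stood apart, so these values cannot decide whether the replicate numbers pair the mice. With the replicate block on 6 libraries 1157 genes and 5 members were called (2 higher, 3 lower), and Ndufa4 and Atp5g3 both stood at -0.03. Depth limits most the fold changes of Atp5l, which had 195 counts over the 6 libraries, and Atp5g2, which had 448.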
